A study of Mus musculus with 6 samples.

Results

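The genes described here are 10 markers of the endothelium, the cell layer that lines blood vessels: Pecam1, Cdh5, Cldn5, Kdr, Tek, Tie1, Eng, Egfl7, Emcn and Vwf. They were chosen by name, as the probes whose gene name in the scanner files was one of these symbols, which gave 10 of 27376 gene names, 15 of 41174 probes and 42 of 43379 spots once control spots were set aside. Whole back skin was taken from mice treated on the shaved back for 7 days with a daily 62.5 mg of either a cream of 5% imiquimod, an agonist of Toll-like receptor 7 used to provoke psoriasis-like skin inflammation, or a vehicle cream. All samples came from female mice of the inbred strain C57BL/6J aged 6 to 8 weeks, with no genetic change given in the labels, and each group held 3 samples on 1 single-colour array each. The samples of a group are numbered without a statement that each is a separate animal, and the p-values below reflect how far these samples vary, a spread that could be technical in part.

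Endothelial cells hold together through cadherin and claudin junctions, and they depend on the receptor tyrosine kinases of the VEGF and angiopoietin families for growth and for a stable, sealed vessel. In psoriatic skin the dermal capillaries are known to be widened, elongated and tortuous, and VEGF from keratinocytes is one known driver of that change. In whole skin, a marker's signal sums over all its cells, so more endothelial cells and more RNA per cell cannot be told apart in these data.

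The treatment of each array was recorded in conflicting ways. All 6 scanner files bore the other treatment in their names than the sample they were filed under. Over 24253 probes, each file matched in rank a column of the deposited value table whose title gave the same treatment as the file name (Spearman rho at least 0.9999997), while its rho with the column of the sample it was filed under was 0.943 to 0.953. Arrays are therefore grouped here by the word in the file name, which is also the value table read by title. Reading the arrays as filed would turn the sign of every difference below. Probes well above background made up 61.2% to 66.5% of all probes on the imiquimod arrays and 66.5% to 67.4% on the vehicle arrays. Pearson correlations between arrays were 0.992 within imiquimod, 0.960 to 0.983 within vehicle and 0.942 to 0.954 between the groups. Keratinocyte and dermal genes that define skin were well above background, with Krt14 among the 8 keratinocyte genes tested and Col1a1 among the 8 fibroblast genes tested.

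Most of the markers gave more signal in imiquimod skin. By limma with Benjamini-Hochberg adjustment over 17773 genes, 7 of the 10 genes were higher (Pecam1, Cdh5, Tie1, Eng, Egfl7, Emcn and Vwf) and 0 were lower. Over all genes tested, 13.1% were called higher and 10.5% lower. The differences of the 10 genes, given as log2 imiquimod minus vehicle, ran between 0.53 and 1.47 with a median of 1.19, against a median of 0.02 over all genes. For 9 of the 10 genes every imiquimod array lay above every vehicle array, which held for 25.9% of all genes tested. By size of difference, the 10 genes stood between the 83.6th and the 96.0th percentile of all genes. All 10 were well above background on all 6 arrays with the probe used, and no probe of theirs was saturated. Array values below are the log2 processed signal minus the 75th percentile of that array, given in the order of the arrays numbered 1, 2 and 3; they depend on the probe, so they compare arrays and not genes.

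Slide and group overlapped in part. Imiquimod array 1 shared slide 1 with the 3 vehicle arrays, and imiquimod arrays 2 and 3 were alone on slide 2. With slide as a block, 2 of the 10 genes stayed past the threshold, Tie1 (limma adjusted p = 0.0472) and Egfl7 (limma adjusted p = 0.0375), where 3.06% of all genes were called higher. The median difference was then 1.23. Of the 10 differences, those of Cldn5, Vwf and Tek moved most, to 0.30, 1.16 and 0.36. The other 5 called genes then had limma adjusted p-values between 0.0533 (Emcn) and 0.122 (Vwf). Within slide 1, imiquimod array 1 set against the 3 vehicle arrays gave the same differences. With 1 imiquimod array that fit called 0.0394% of all genes higher, so its 0 calls among the 10 genes carry little weight. Without imiquimod array 3, or without vehicle array 1, 4 of the 10 genes were higher (Cdh5, Tie1, Egfl7 and Emcn), where 5.80% and 5.30% of all genes were. Without imiquimod array 1 or 2 it was 5, beside 5.70% and 5.59% of all genes. It was 7 without vehicle array 2, beside 13.8%, and 9 without vehicle array 3, beside 14.1%, with Kdr at 0.68 (limma adjusted p = 0.0252) and Cldn5 at 1.00 (limma adjusted p = 0.0404) added. The scanner software marked vehicle arrays 2 and 3 for evaluation, with mean net negative control signals of 40.9 and 45.2, against 31.7 to 37.6 on the other arrays, and without both of them 7 of the 10 genes were higher, beside 9.09% of all genes.

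**Figure D1:**
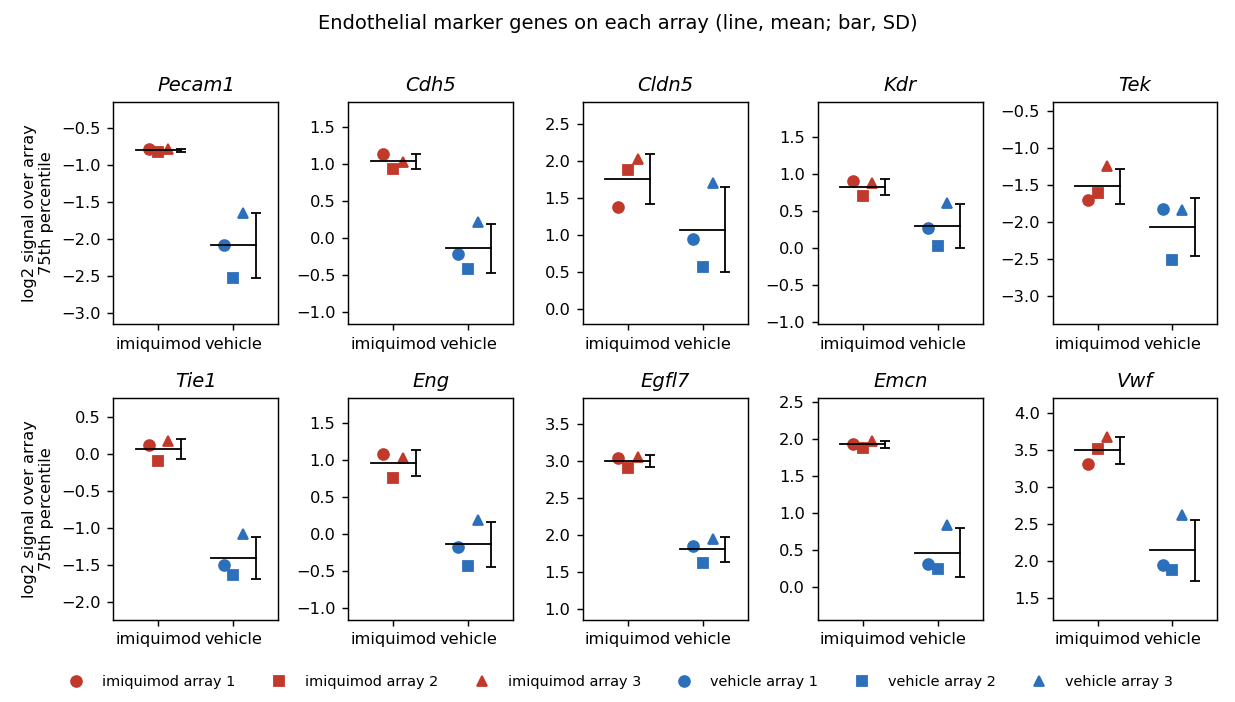
Values of the 10 endothelial marker genes on each array, as log2 signal over the 75th percentile of the array (vertical axis, a separate range per gene), for imiquimod at left and vehicle at right. Lines are means and bars SD of 3 arrays. The groups overlap for Cldn5 only, and the vehicle arrays spread more widely than the imiquimod arrays for all 10 genes.

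Among the adhesion and junction genes, Pecam1 and Cdh5 were higher and Cldn5 did not pass. Pecam1 encodes CD31, an adhesion molecule at endothelial cell borders that leukocytes and platelets also carry. Its 2 probes read different stretches of the locus and gave different signals, so both are printed, 5′ to 3′ as on the array and with no letters marked. The first spans 1854 bases of the minus strand at mm9 chr11:106542389-106544242 for its 60 bases of sequence, skipping 1794 bases, and the second lies inside that stretch at chr11:106543058-106543117.
Pecam1, skipping probe: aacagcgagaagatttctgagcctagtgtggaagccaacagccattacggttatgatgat
Pecam1, inner probe: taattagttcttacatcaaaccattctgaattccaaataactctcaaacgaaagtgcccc

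The skipping probe of Pecam1 read -0.79, -0.82 and -0.78 on the imiquimod arrays, against -2.07, -2.52 and -1.64 on the vehicle arrays. The imiquimod arrays lay closer to each other than those of any other of the 10 genes, and the groups were well apart. The difference was 1.28 (SE 0.23, limma adjusted p = 0.0140), a 2.43-fold higher signal with a 95% interval of 1.66 to 3.57. The inner probe was listed with no RefSeq transcript, was well above background on 0 arrays of either group and was not tested.

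Cdh5 encodes VE-cadherin, the cadherin of endothelial adherens junctions. It read 1.14, 0.93 and 1.02 with imiquimod, against -0.23, -0.43 and 0.22 with vehicle. All 3 imiquimod arrays were above the highest vehicle array. The difference was 1.18 (SE 0.19, limma adjusted p = 0.0103), or 2.26-fold. A second Cdh5 probe, at mm9 chr8:106667499-106667558, differed by 1.31 (SE 0.21, limma adjusted p = 0.0102).

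Cldn5, a tight junction claudin of blood vessels, was the gene whose groups overlapped. Its values were 1.37, 1.87 and 2.01 in imiquimod skin, against 0.94, 0.56 and 1.69 in vehicle skin. The lowest imiquimod array, array 1, lay below the highest vehicle array, array 3. The difference of 0.69 (SE 0.33) had a limma adjusted p of 0.180, and its fold of 1.61 had a 95% interval of 0.92 to 2.81, which holds both no change and a rise as large as that of Pecam1.

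Of the receptor kinases, Tie1 was higher, and Kdr and Tek did not pass. Tie1 is the orphan partner of the angiopoietin receptor Tek. Its single probe lies on the minus strand at mm9 chr4:118144132-118144191 and is printed because this gene had the largest difference of the 10.
Tie1 probe: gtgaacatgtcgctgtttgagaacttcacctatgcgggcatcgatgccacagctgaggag

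Tie1 read 0.13, -0.09 and 0.18 on imiquimod arrays, against -1.49, -1.63 and -1.08 on vehicle arrays. The gap between the lowest imiquimod and the highest vehicle array was wider than the spread within either group. The difference was 1.47 (SE 0.17, limma adjusted p = 0.00473), or 2.77-fold with a 95% interval of 2.06 to 3.73.

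Tek, also called Tie2, is the receptor through which angiopoietins act. Its values were -1.69, -1.60 and -1.24 with imiquimod, against -1.82, -2.51 and -1.84 with vehicle. The groups did not overlap, but imiquimod array 1 and vehicle array 1 were close. The difference was 0.54 (SE 0.23, limma adjusted p = 0.144). A second Tek probe, listed with no RefSeq transcript, gave 0.40 (SE 0.19, limma adjusted p = 0.185). Kdr, the main signalling receptor for VEGF-A on blood endothelium, read 0.90, 0.69 and 0.87 in imiquimod skin, against 0.26, 0.02 and 0.60 in vehicle skin. Its groups were separate by a narrow margin. The difference was 0.53 (SE 0.17, limma adjusted p = 0.0773), or 1.44-fold with a 95% interval of 1.07 to 1.94 that is not adjusted for the number of genes. The second Kdr probe, at mm9 chr5:76357639-76357698, was listed with no RefSeq transcript and was well above background on 0 arrays. Whether the difference of Tie1 exceeds those of Kdr and Tek was not tested.

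**Figure D2:**
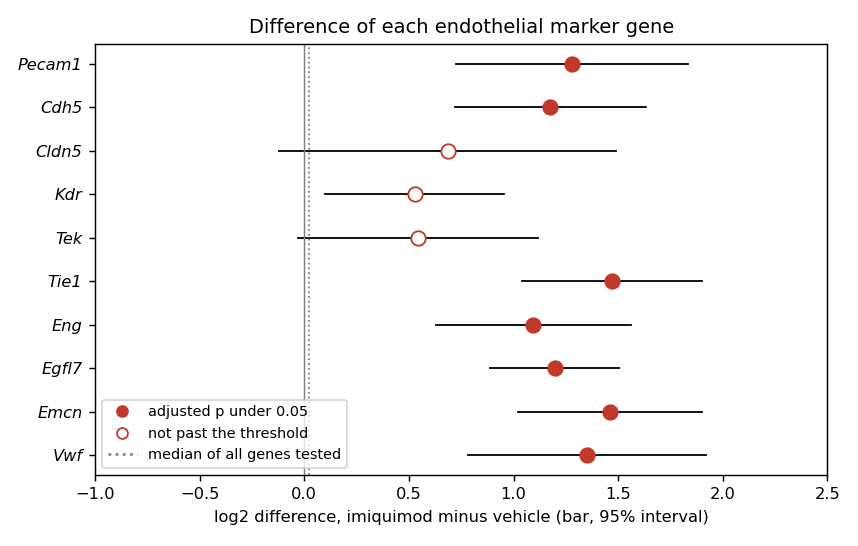
Difference between imiquimod and vehicle for each endothelial marker gene, as log2 imiquimod minus vehicle (horizontal axis) with unadjusted 95% intervals from limma. Filled points are the 7 genes with an adjusted p under 0.05, open points are Cldn5, Kdr and Tek, and the dotted line is the median of all genes, 0.02.

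Eng encodes endoglin, a co-receptor for BMP9 and TGF-beta on endothelium that macrophages can also make. Its values were 1.08, 0.75 and 1.03 with imiquimod, against -0.17, -0.43 and 0.18 with vehicle. No vehicle array reached the lowest imiquimod array. The difference was 1.10 (SE 0.19, limma adjusted p = 0.0136), or 2.14-fold.

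Egfl7, a secreted protein that endothelial cells lay down around themselves, had the smallest spread between vehicle arrays of the 10 genes. It averaged 3.00 ± 0.08 on imiquimod arrays and 1.80 ± 0.17 on vehicle arrays (SD, n = 3 each). The arrays read 3.04, 2.90 and 3.05 for imiquimod, against 1.85, 1.62 and 1.94 for vehicle. With a difference of 1.20 (SE 0.13, limma adjusted p = 0.00344), or 2.29-fold, it had the smallest p of the 10.

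Emcn encodes endomucin, a sialomucin of venous and capillary endothelium. It read 1.93, 1.87 and 1.96 in imiquimod skin, against 0.31, 0.24 and 0.83 in vehicle skin. The imiquimod arrays were tightly grouped, at 1.92 ± 0.05, and the vehicle arrays averaged 0.46 ± 0.32 (SD, n = 3 each). The difference was 1.46 (SE 0.18, limma adjusted p = 0.00515), or 2.75-fold.

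Vwf encodes von Willebrand factor, the carrier of factor VIII that tethers platelets, which endothelial cells store and megakaryocytes also make. Its values were 3.30, 3.51 and 3.67 with imiquimod, against 1.94, 1.87 and 2.62 with vehicle. Vehicle array 3 stood above the other vehicle arrays but below every imiquimod array. The difference was 1.35 (SE 0.23, limma adjusted p = 0.0129), or 2.55-fold. A second probe for Vwf, on the plus strand at mm9 chr6:125635858-125635917, differed by 1.36 (SE 0.23, limma adjusted p = 0.0122) and is printed as a second reading of this transcript.
Vwf, second probe: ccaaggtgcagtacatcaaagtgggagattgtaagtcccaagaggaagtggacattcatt

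The markers varied together between samples as well as between groups. Over the 45 pairs of the 10 genes, Pearson's r across the 6 arrays had a median of 0.96, and after each group's mean was taken out the median was 0.84, with all 45 pairs positive (0.54 to 0.99). These points share their arrays and the scaling of each array, so the values are a description. Vehicle array 2 was the lowest vehicle array for 10 of the 10 genes, and vehicle array 3 was the highest for 9. Both were marked for evaluation. Their median deviations from the group mean were -0.28 and 0.34, against -0.09 to 0.06 on the other arrays. With each gene centred on its mean over the 6 arrays, the mean of the 10 genes was 0.51, 0.47 and 0.64 on the imiquimod arrays, against -0.58, -0.86 and -0.18 on the vehicle arrays.

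Some lists of other cell types moved along with the markers and others did not, and all were read on the same arrays. Of 9 tested leukocyte genes, 7 were higher and 0 lower. The lowest of the 9 was at -0.76 and did not pass, though every imiquimod array lay below every vehicle array. The centred mean of the 9 was 0.74, 1.07 and 0.75 on imiquimod arrays, against -0.88, -1.34 and -0.35 on vehicle arrays. The 2 of highest mean were Lyz2, a lysozyme of myeloid cells, at 1.20 (SE 0.29, limma adjusted p = 0.0331), and Adgre1, the macrophage antigen F4/80, at 2.74 (SE 0.45, limma adjusted p = 0.0111). Vehicle array 2 was the lowest and vehicle array 3 the highest of the vehicle arrays on this list too. The fibroblast, lymphatic, pericyte, adipocyte and skeletal muscle lists shared that order. The call of Lyz2 was lost under quantile normalization (0.84, limma adjusted p = 0.124), in the value table (0.81, limma adjusted p = 0.131) and with dim probes kept (limma adjusted p = 0.0572). Taking the leukocyte mean off that of the endothelial markers on each array left -0.24, -0.60 and -0.11 for imiquimod, against 0.30, 0.48 and 0.16 for vehicle, so on these arrays the leukocyte list differed by more than the markers. The part of leukocytes in the Pecam1 and Eng differences was not tested.

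Platelets share Vwf and Pecam1 with endothelium. Of 8 tested platelet and megakaryocyte genes 4 were higher and 0 lower, with centred means of 0.79, 0.36 and 0.44 for imiquimod, against -0.90, -0.44 and -0.25 for vehicle. Most of this list was dim. Gp9 was well above background on 0 of 3 vehicle arrays and entered the test through imiquimod arrays alone, Clec1b on 1 of 3 and Gp1ba on 2 of 3, so the list's count and mean are no support, and no sizes are given for these genes. Of the 3 genes well above background on all 6 arrays, 1 was higher, the platelet receptor subunit Gp1bb at 1.06 (SE 0.28, limma adjusted p = 0.0429; limma adjusted p = 0.0737 with dim probes kept, and 0.70 under normexp). Their centred means were 0.36, 0.13 and 0.24 for imiquimod, against -0.35, -0.28 and -0.10 for vehicle. Under normexp the median of the 8 genes was 0.41 with 3 higher, against 1.03 in the main scaling. Pf4, a platelet chemokine and the gene of highest mean on the list, was at 0.24 (SE 0.51, limma adjusted p = 0.759). On the platelet list vehicle array 1 was the lowest, which for the 10 endothelial markers was array 2. Taking the mean of all 8 off that of the markers left -0.28, 0.11 and 0.20 for imiquimod, against 0.32, -0.41 and 0.07 for vehicle, which overlap. These values rest on the same dim genes, so the overlap is no support either. The part of platelets in the Vwf difference was not tested.

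Dermal fibroblast genes passed in 5 of 8 cases, all higher, with a median of 0.67: Col1a1, Col3a1, Col1a2, Lum and Fbln1. Under quantile normalization and in the value table the median was 0.34 with 4 higher. Their centred means were 0.19, 0.29 and 0.40 with imiquimod, against -0.21, -0.66 and 0.01 with vehicle. Taking this list's mean off that of the endothelial markers on each array left 0.32, 0.18 and 0.25 for imiquimod, against -0.37, -0.19 and -0.19 for vehicle, with no overlap between the groups, as a description. Col1a2, the fibroblast gene of highest mean, differed by 0.45 (SE 0.13, limma adjusted p = 0.0482). That call was lost under quantile normalization (0.11, limma adjusted p = 0.608), in the value table (0.12), with dim probes kept (limma adjusted p = 0.106) and per probe. Without the arrays marked for evaluation Col1a2 differed by 0.44. Averaging its probes gave 0.97. Dcn, the next, differed by 0.01 (SE 0.26, limma adjusted p = 0.979), a value that turned negative under several alternatives. The share of dermis in each sample was not measured.

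The hair follicle list went the other way: 7 of 8 tested genes were lower and 0 higher, and its centred means were -4.65, -3.78 and -3.73 for imiquimod, against 4.78, 5.80 and 1.59 for vehicle. Vehicle array 3, the highest of its group for the endothelial markers, was the lowest for hair follicle, and vehicle array 2 was the reverse. Krt25 was well above background on 0 imiquimod arrays and entered through vehicle arrays alone, so the count and means of all 8 rest in part on dim readings. Of the 4 genes bright on all 6 arrays 3 were lower. Their centred means were -3.66, -2.78 and -2.53 for imiquimod, against 3.70, 4.60 and 0.67 for vehicle. The genes of highest mean were Tchh, trichohyalin of the inner root sheath, at -4.27 (SE 0.82, limma adjusted p = 0.0176), and Krt27, a keratin of that sheath, at -8.07 (SE 1.08, limma adjusted p = 0.00656). The values are given beside the markers because skin thickness and vessel density are known to vary over the hair cycle, and the part of the hair cycle in the endothelial differences was not tested.

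**Figure D3:**
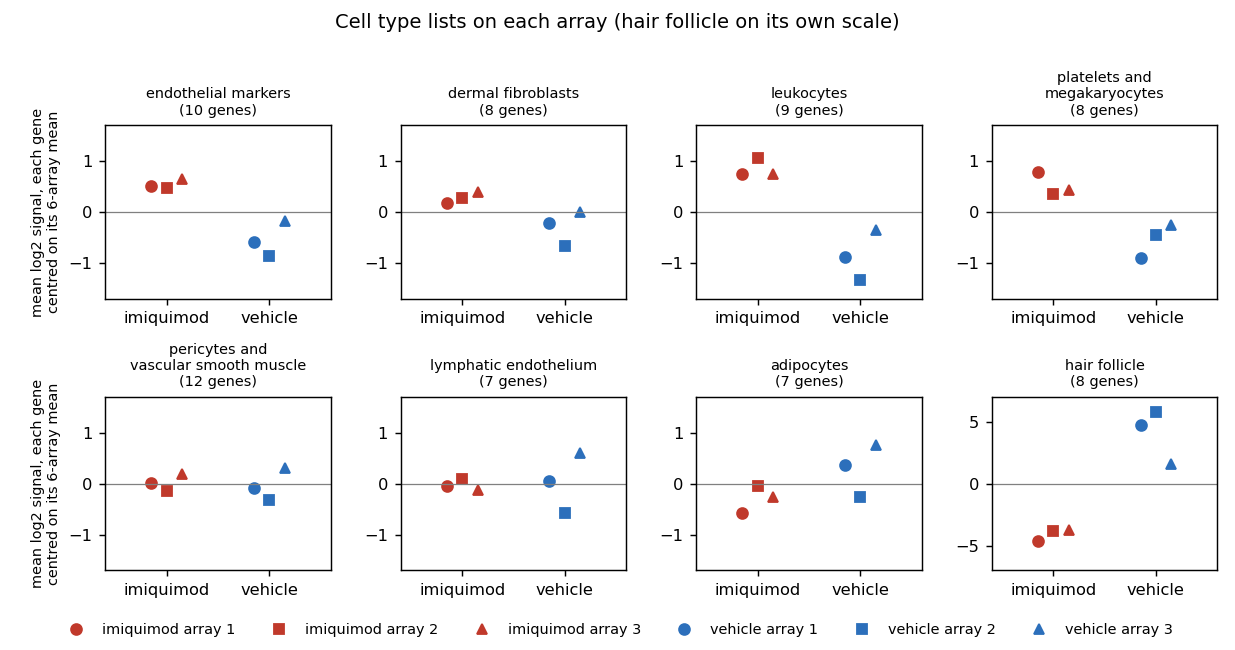
Mean log2 signal of cell type lists on each array, each gene centred on its mean over the 6 arrays (vertical axis; hair follicle has its own range), for imiquimod at left and vehicle at right. The endothelial, leukocyte, fibroblast, pericyte, lymphatic and adipocyte lists share the order of the vehicle arrays, with array 2 lowest and array 3 highest. The platelet list does not share it, and the hair follicle list has the opposite order. Each of these last lists includes genes that were dim throughout a group.

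The remaining cell type lists were mixed. Of 8 keratinocyte genes, Krt14, Krt1 and Krt5 were higher and Krt15 and Epcam lower. Krt14 differed by 2.25 (SE 0.15, limma adjusted p = 0.00155) and Krt5 by 0.77 (SE 0.13, limma adjusted p = 0.0123, and 0.47 under quantile normalization). Krt10 differed by 0.52 (SE 0.15, limma adjusted p = 0.0537) and did not pass here, but did under some alternatives that kept all 6 arrays. Of 7 adipocyte genes 1, the hormone gene Lep, was lower at -2.07 (SE 0.26, limma adjusted p = 0.00549), and of 8 skeletal muscle genes 1, the myosin Myh1, was lower at -1.69 (SE 0.45, limma adjusted p = 0.0450). No muscle gene was lower with dim probes kept or with probes averaged. The genes of highest mean on these lists did not pass, with the adipocyte genes Cfd at -0.42 (limma adjusted p = 0.417) and Fabp4 at -0.34 (limma adjusted p = 0.266), and the muscle genes Tnnc2 at -0.72 (limma adjusted p = 0.255) and Myh4 at 0.38 (limma adjusted p = 0.360). Of 4 red blood cell genes tested none passed, with a median of 2.07. Hbb-bt, a beta globin, was at 2.02 (SE 0.65, limma adjusted p = 0.0716) and the alpha globin gene Hba-a1 at 2.11 (SE 0.71, limma adjusted p = 0.0804). Taking the red blood cell mean off that of the markers left -0.67, -1.30 and 0.91 for imiquimod, against 1.08, -0.73 and 0.71 for vehicle, which overlap.

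A wider list held 21 other endothelial genes. Of these, 14 were higher and 0 lower, with a median of 0.95. The smallest p belonged to Gpihbp1, which holds lipoprotein lipase on capillary walls, at 1.34 (SE 0.14, limma adjusted p = 0.00367). Its values were 2.30, 2.23 and 2.37 with imiquimod, against 0.85, 0.82 and 1.23 with vehicle. Plvap, the diaphragm protein of fenestrated capillaries, differed by 1.26 (SE 0.15, limma adjusted p = 0.00437), and Aplnr, the apelin receptor, by 1.95 (SE 0.23, limma adjusted p = 0.00462). Of the 7 that did not pass, Cd36 was at -0.86 (limma adjusted p = 0.0955) and Cd34 at -0.80 (limma adjusted p = 0.182). Both are also made by other cells of skin. The endothelial nitric oxide synthase Nos3 was at 0.73 (limma adjusted p = 0.0527). S1pr1 was at 0.55 (limma adjusted p = 0.199) and Calcrl at 0.29 (limma adjusted p = 0.499). Ramp2 was at 0.07 (limma adjusted p = 0.900) and Procr at -0.17 (limma adjusted p = 0.882). The groups overlapped for Cd36, Cd34, S1pr1, Calcrl, Ramp2 and Procr, but not for Nos3. Why these genes did not pass was not tested.

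Among 8 tested ligands of the VEGF, angiopoietin and apelin families 3 were higher and 0 lower. Angpt2, the angiopoietin that antagonises Tek signalling and is made by activated endothelium, read 0.57, 0.14 and 0.33 in imiquimod skin, against -1.45, -1.62 and -1.06 in vehicle skin. It differed by 1.72 (SE 0.19, limma adjusted p = 0.00400), with no overlap between the groups. The others were Apln, the ligand of Aplnr, at 1.10 (SE 0.23, limma adjusted p = 0.0211), and Pgf, placental growth factor, at 0.98 (SE 0.22, limma adjusted p = 0.0261). The call of Pgf was lost under normexp (0.44, limma adjusted p = 0.0585), leaving 2 ligands higher. Without the arrays marked for evaluation Apln differed by 1.15. With probes averaged per gene 4 ligands were higher, and the list's median was 0.60, against 0.42 with 1 probe a gene. Vegfa itself read 2.22, 1.62 and 1.43 with imiquimod, against 1.30, 1.12 and 1.16 with vehicle. All imiquimod arrays lay above all vehicle arrays, but the difference of 0.56 (SE 0.22) had a limma adjusted p of 0.116. Angpt1, the agonist of Tek, was well above background on 1 array at most and was not tested.

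Of the partners of Kdr and Tek at the cell surface, 1 of 4 tested genes passed. Ptprb, the phosphatase VE-PTP that acts on Tek and Cdh5 and is counted among the 21 endothelial genes too, was higher by 0.73 (SE 0.17, limma adjusted p = 0.0323), a call lost with dim probes kept (limma adjusted p = 0.0633) and with probes averaged (limma adjusted p = 0.0726). The VEGF receptor Flt1 was at 0.37 (SE 0.26, limma adjusted p = 0.345) and the co-receptor Nrp2 at -0.57 (SE 0.20, limma adjusted p = 0.0856). Without the arrays marked for evaluation Nrp2 was at -0.77. Flt4, the receptor of lymphatic endothelium, was well above background on 0 arrays.

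Of 15 transcription factors of endothelium 7 were higher and 1 lower, with a median of 0.75. The one that was lower was Foxo1, a brake on endothelial growth that many cell types carry, which read 2.01, 2.10 and 2.09 with imiquimod, against 3.19, 3.27 and 3.03 with vehicle. It differed by -1.10 (SE 0.11, limma adjusted p = 0.00307). Hif1a, the oxygen-regulated factor of all cells, was higher by 1.69 (SE 0.22, limma adjusted p = 0.00594), and the ETS factor Erg, which maintains Cdh5 expression in endothelium, by 0.99 (SE 0.15, limma adjusted p = 0.00936). The other 5 that were higher were Ets1, Sox7, Sox17, Fli1 and Epas1.

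The vascular Notch list split. Notch4, a receptor of endothelium, was higher by 1.08 (SE 0.15, limma adjusted p = 0.00704), as were the tip cell ligand Dll4 and Ephb4, while Efnb2 was lower by 1.07 on the log2 scale, at -1.07 (SE 0.11, limma adjusted p = 0.00318). Jag2 (-0.68, SE 0.12, limma adjusted p = 0.0136) and Notch1 were also lower, and epidermis and hair follicle express both. Without the arrays marked for evaluation Jag2 was at -0.66. The list's median over 10 tested genes was -0.08.

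Genes of endothelial activation included the largest single difference of the vascular lists. Vcam1, an adhesion molecule for leukocytes, read 1.38, 0.97 and 1.13 in imiquimod skin, against -0.99, -1.49 and -0.90 in vehicle skin. It differed by 2.29 (SE 0.20, limma adjusted p = 0.00230). Selp, the P-selectin that endothelium and platelets store, differed by 1.67 (SE 0.30, limma adjusted p = 0.0147). Esm1, a proteoglycan of VEGF-stimulated endothelium, differed by 1.51 (SE 0.38, limma adjusted p = 0.0389). The call of Esm1 was lost with dim probes kept (limma adjusted p = 0.0651). Its difference was 1.10 without the arrays marked for evaluation. The remaining 5 of 8 did not pass, with Icam1 at 0.29 (limma adjusted p = 0.208) and Sele at 1.66 (limma adjusted p = 0.214). Differences were positive for 6 of the 8, and the lowest was at -0.67. For 1 gene of the list every imiquimod array lay below every vehicle array. With only probes bright on all 6 arrays Sele dropped out. The list then held 7 genes with 3 higher and a median of 1.10, against 1.30 in the main scaling. Under normexp the median of the 8 genes was 0.76.

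None of the signalling partners of Eng was called higher. Of 8 tested genes of its BMP and TGF-beta branch 0 were higher and 2 lower, Smad5 at -0.56 (SE 0.11, limma adjusted p = 0.0184) and the BMP target Id3 at -1.18 (SE 0.30, limma adjusted p = 0.0386). The call of Id3 was lost with dim probes kept (limma adjusted p = 0.0663) and that of Smad5 with probes averaged (-0.31, limma adjusted p = 0.179). Without the arrays marked for evaluation Id3 was at -1.02 and Smad5 at -0.55. Bmpr2 was at -0.28 (SE 0.11, limma adjusted p = 0.110). The endothelial receptor Acvrl1, or ALK1, read -2.52, -2.37 and -2.37 with imiquimod, against -2.62, -2.11 and -2.40 with vehicle, a difference of -0.04 (SE 0.16, limma adjusted p = 0.867).

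Lymphatic vessels and the mural cells around blood vessels had lists of their own. Of 7 lymphatic genes tested 1 was higher, Pdpn, which fibroblasts and activated keratinocytes also make, at 1.24 (SE 0.25, limma adjusted p = 0.0211). It was at 0.72 under normexp and at 1.21 without the arrays marked for evaluation. The lymphatic hyaluronan receptor Lyve1, which macrophages can carry, was at -1.23 (SE 0.71, limma adjusted p = 0.253) and Itga9 at 0.60 (SE 0.27, limma adjusted p = 0.160). Without the arrays marked for evaluation Lyve1 was at -1.39. Of 12 genes of pericytes and vascular smooth muscle 3 were higher and 1 lower, with a median of -0.01. Rgs5, a pericyte gene, was higher by 1.36 (SE 0.21, limma adjusted p = 0.00972) and Pdgfrb, the PDGF receptor of pericytes and fibroblasts, by 1.05 (SE 0.24, limma adjusted p = 0.0273), as was Mcam, while Cspg4, or NG2, was lower at -1.38 (SE 0.15, limma adjusted p = 0.00407). Taking the mural mean off the endothelial markers on each array left 0.49, 0.61 and 0.45 for imiquimod, against -0.50, -0.55 and -0.50 for vehicle.

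**Figure D4:**
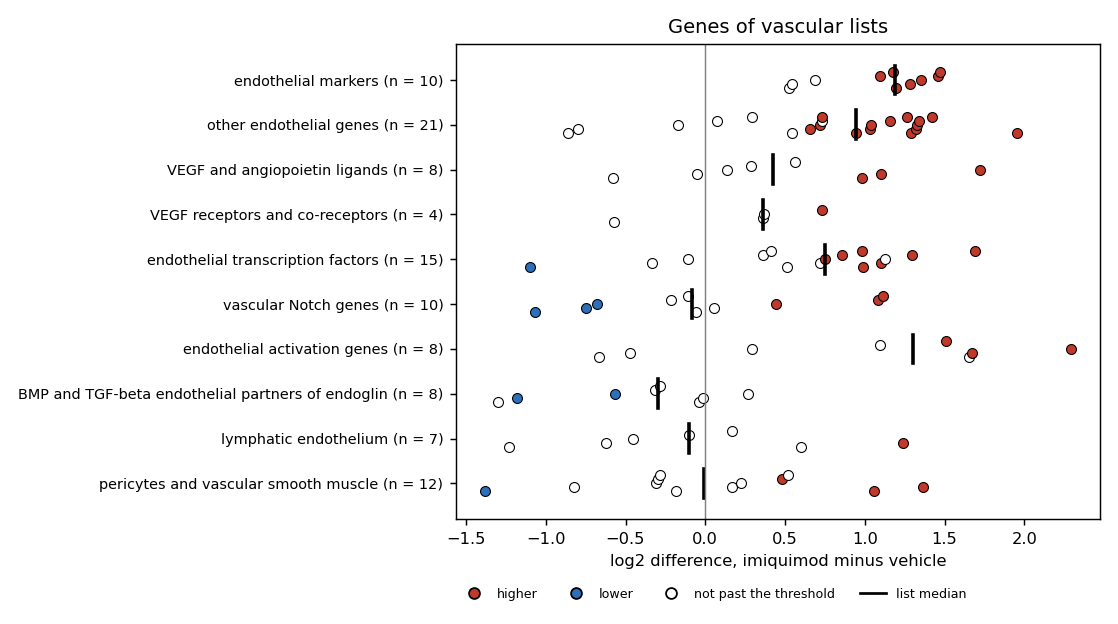
Difference of each tested gene of the vascular lists, as log2 imiquimod minus vehicle (horizontal axis), 1 point per gene, with black bars for list medians. Red points are higher and blue points lower at an adjusted p under 0.05. The endothelial markers have a median of 1.19 with no point below 0, and the mural, lymphatic and Notch lists have medians near 0.

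Over 14891 other gene symbols, those whose values followed the mean of the 10 markers most closely across the 6 arrays were Colgalt1, a collagen galactosyltransferase (r = 0.999), Cysltr2, a leukotriene receptor (r = 0.998), the olfactory receptor gene Olfr78 (r = 0.998), Sox17 (r = 0.997) and the zinc finger gene Zfp773 (r = 0.997). Such values are a description over 6 points that fall into 2 groups. Colgalt1 read 1.44, 1.40 and 1.52 with imiquimod, against 0.78, 0.58 and 0.98 with vehicle. The signals of Cysltr2 and Olfr78 were far below the 75th percentile on all arrays, at -3.40 and -4.32 at most.

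Promoter sequence from RefSeq was matched by symbol for 7 of the 10 genes, Cldn5, Kdr, Tek, Tie1, Eng, Egfl7 and Emcn. ETS factors such as Erg, Fli1 and Ets1 bind around a GGAA core, so the 250 bases upstream of each start were searched for GGAAG on both strands, with overlaps counted. Egfl7 has 3 starts, which gave 9 promoters. At least 1 match was found in 6 of the 9, against 64.1% of 32817 promoters in the table. A longer form, CCGGAAG, was in 0 of the 9, against 6.90% of all promoters, and the GATA motif GATAAG in 0, against 6.55%. The SOX motif ACAAAG was in 3 of the 9, against 16.5%. The Tie1 promoter had 6 matches, the most of the 9, and the promoters of Cldn5, of Tek and of 1 start of Egfl7 had 0. Tie1 and Cldn5 are printed 5′ to 3′ with GGAAG or its reverse complement CTTCC in capitals, Tie1 from the minus strand at GRCm38.p6 chr4:118489850-118490099 and Cldn5 from the plus strand at GRCm38.p6 chr16:18776597-18776846. A match describes letters and does not show binding.
Tie1 promoter: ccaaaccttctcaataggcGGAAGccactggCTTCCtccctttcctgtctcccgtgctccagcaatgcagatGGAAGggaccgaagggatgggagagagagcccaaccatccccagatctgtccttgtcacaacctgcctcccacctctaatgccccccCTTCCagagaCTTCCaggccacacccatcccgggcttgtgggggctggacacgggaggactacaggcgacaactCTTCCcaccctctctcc
Cldn5 promoter: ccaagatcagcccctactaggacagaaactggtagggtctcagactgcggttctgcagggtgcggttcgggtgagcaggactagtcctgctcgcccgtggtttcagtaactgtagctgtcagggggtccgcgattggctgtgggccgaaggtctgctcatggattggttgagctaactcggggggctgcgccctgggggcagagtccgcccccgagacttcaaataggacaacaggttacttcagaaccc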

How the data were processed

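Single-colour Agilent mouse arrays read total RNA from back skin, with 3 arrays for imiquimod and 3 for vehicle. The deposited scanner files hold spot intensity on a linear scale, background-subtracted and detrended by the authors with Agilent Feature Extraction 10.7.3.1, per the file headers; the submitters' processing notes name version 9.1. A value table deposited by the authors holds log2 values (slopes of 0.973 to 1.01 per log2 unit of processed signal, column medians of 7.05) and was used to match arrays to titles and as an alternative; its normalization between arrays is not given in the sources used here. Probe positions are the mm9 positions of the files, and no annotation of exons was used.

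After control spots and 322 outlier spots were left out, 41115 of 41174 probes remained. Each array's log2 processed signal was scaled to its 75th percentile (a signal of 861 to 935 for imiquimod and 941 to 1106 for vehicle). A probe was tested if 3 or more arrays of the 6 read it well above background (27415 probes), and the tested probe of highest mean stood for a gene (17773 genes). Probes were named by RefSeq accession (27737), symbol (5523) or synonym (459), and otherwise kept the file's name (7396). No probe under another name carried an accession of the 10 genes.

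The comparison used lmFit and eBayes of limma 3.58.1 under R 4.3.3 (two-sided, no covariates), with Benjamini-Hochberg adjustment over all genes at 0.05. An unadjusted p under 0.05 was reached by 6933 genes. The steps were tested on simulated data. The members, the 18 gene lists (1 of them the markers) and the alternatives were chosen with earlier results of these data known. Genes named are all markers, the 3 genes of smallest p in each vascular list, the 2 of highest mean and all genes of short counts in other cell type lists, and the 5 symbols most like the markers' mean; any others were chosen after their values were seen. No pairing by replicate number was used. Deviations from the group means of arrays sharing a number correlated at -0.0868, 0.0676 and 0.0854 over genes. With 3 arrays a group, these values cannot settle whether the samples were paired. The number of arrays limits the precision.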

Additional observations from a re-analysis of the deposited data

How the results depend on the processing

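The 10 endothelial markers kept a positive difference under all 18 alternatives, with a median between 1.05 and 1.31. The count of markers called higher was 7 under quantile normalization, normexp background correction, dim probes kept, only probes bright on all 6 arrays and probes averaged per gene. It was also 7 with every probe on its own, a variance trend with robust estimation, the replicate block and the value table. It was 2 with slide as a block, 0 within slide 1 and 4 to 9 when 1 array was left out, and the count called lower was 0 under all alternatives. Over all genes, the counts were 1166 higher and 1046 lower with the replicate block, 544 and 519 with slide as a block, and 7 and 1 within slide 1. With 1 array left out they ran between 942 and 2512 higher and between 745 and 2213 lower. Fewer arrays or residual degrees of freedom remain in these fits. With all 6 arrays and no block, genes called higher numbered 2159 of 17773 under quantile normalization and 2381 under normexp. They numbered 2162 in the value table, 2195 with probes averaged and 2575 with the variance trend. With dim probes kept it was 1563 of 27306, and with probes bright on all 6 arrays 2233 of 15896. Taken one by one, 3137 of 27415 probes were called higher. Of 30 named genes outside the markers that passed, 11 kept their call with slide as a block and 21 with the replicate block. With 1 array left out 16 to 29 kept it. The slide block and the fit within slide 1 give the same differences, since slide 2 held imiquimod arrays only. No change of scaling moved the median of all genes by more than -0.01 (value table). Whether the numbers pair the samples is not known, and the replicate block left the 7 calls in place. Differences that changed sign belong to genes that did not pass. Dcn was at -0.31 under quantile normalization, -0.047 under normexp, -0.095 with slide as a block and within slide 1, -0.11 without the arrays marked for evaluation and -0.29 in the value table, and ran between -0.24 and 0.21 with 1 array left out. Pf4 ran between -0.31 and 0.74 and Acta2 between -0.54 and 0.045 with 1 array left out, and Myh4 was at -0.054 without the arrays marked for evaluation. The cause of these changes was not tested. Dim probes limit the second Pecam1 and Kdr probes, Flt4 and Angpt1, for which no difference is given.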
